A study of Homo sapiens with 19 samples.

Results

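The genes followed here are 10 regulators and markers of the epithelial-mesenchymal transition (EMT), taken by gene symbol from the 33382 genes of the deposited tables. They are the transcription factors *SNAI1*, *SNAI2*, *ZEB1*, *ZEB2*, *TWIST1* and *TWIST2*, the cadherins *CDH1* and *CDH2*, the epithelial adhesion gene *EPCAM* and the mesenchymal filament gene *VIM*. Each symbol matched 1 row, so all 10 were measured in all 19 samples. The rows were taken by symbol alone, though the set of genes was drawn up with earlier results of these data known.

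EMT is the change by which cells joined in a polarised sheet loosen their contacts and take on a migratory, fibroblast-like form, as happens when mesoderm forms in the embryo. SNAI and ZEB zinc-finger proteins and the basic helix-loop-helix TWIST proteins bind E-box elements in DNA. SNAI and ZEB factors repress *CDH1*, which encodes E-cadherin, the calcium-dependent adhesion protein of epithelial junctions. In the classical description, loss of *CDH1* is paired with gain of *CDH2*, which encodes N-cadherin, and this exchange is called the cadherin switch. Human embryonic stem cells (hESCs) grow as epithelial colonies with *CDH1* and *EPCAM* on. Polycomb repressive complex 2 (PRC2) places the repressive histone mark H3K27me3 through EZH1 or EZH2, and needs EED and SUZ12 as core subunits to do so.

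The study measured RNA from the established hESC line H1 and from H1 cells with PRC2 genes deleted by CRISPR/Cas9 and homologous recombination. There were 2 samples of each of 6 lines: WT H1, the single knockouts EZH1-/- H1, EZH2-/- H1, SUZ12-/- H1 and EED-/- H1, and the double knockout EZH2-/-/EZH1-/- H1. None of the 6 carries a transgene as far as the labels say. H1-EED-/-/EED-OE cells lack the endogenous *EED* in all 7 of their samples and carry a lentiviral *EED* transgene that doxycycline (DOX, 2 µg per mL) turns on. This line gave 1 sample with DOX and 6 without it, taken 8, 12, 16, 20, 24 and 28 days after removal. SUZ12-/-, EED-/- and EZH2-/-/EZH1-/- H1 cells are grouped below as the PRC2-null lines, since each lacks a core subunit or both catalytic ones. WT, EZH1-/- and EZH2-/- H1 cells, which keep a catalytic subunit, are grouped as the retaining lines. The PRC2-null cells had left the hESC state, as the markers below show, so they differ from WT H1 in cell state as well as genotype. Nothing in the labels says outright that the 2 samples of a line came from separate cultures, and some titles within a line bear unlike names. The p-values measure only the spread between these samples. In the fit of the lines this is the spread within a line. Where the PRC2-null or the retaining lines are averaged, differences between lines enter neither the SE nor the p.

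Levels are in TPM, which are reads scaled for transcript length and for the total of the library, so levels may be compared between genes. TPM keeps no read depth, and precision rests on the replicates. Between 14389 and 17043 genes reached a TPM of 1 in a sample. The summed level of 7 hESC markers, *POU5F1* among them, was 5819.1 to 6979.0 TPM in the retaining lines and 136.6 to 459.2 TPM in the PRC2-null lines, so the former only were at hESC levels. In H1-EED-/-/EED-OE cells the sum was 4970.2 TPM with DOX, 5210.4 to 5939.4 TPM on days 8 to 16, 2629.8 TPM on day 20, and 418.4 and 452.2 TPM on days 24 and 28. The SUZ12-/- H1 samples stood closer together than any other pair: over genes with a mean of at least 100 TPM, the median absolute log2 difference was 0.0527, against 0.0959 in WT H1, 0.219 in EED-/- H1 and 0.411 in EZH2-/-/EZH1-/- H1 cells. Without read counts it could not be tested whether this is within sampling noise, so results resting on this pair are also given with both samples averaged into 1.

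The targeted genes were read first. *EED* was at 14.25 and 22.36 TPM in EED-/- H1 and at 17.3 and 21.96 TPM in WT H1 cells. *SUZ12* was at 22.94 and 20.76 TPM in SUZ12-/- H1 and at 25.21 and 27.89 TPM in WT H1 cells. *EZH1* was at 12.49 and 17.07 TPM in EZH1-/- H1, 9.37 and 6.78 TPM in EZH2-/-/EZH1-/- H1 and 13.71 and 14.29 TPM in WT H1 cells. *EZH2* was at 46.94 and 22.02 TPM in EZH2-/- H1, 31.28 and 20.03 TPM in EZH2-/-/EZH1-/- H1 and 54.55 and 58.89 TPM in WT H1 cells. The targeting removed the stretch encoding a functional domain, and a value summed over the whole gene still counts the remaining transcript, so these levels do not check the knockout labels. In the inducible line *EED* was at 108.54 TPM with DOX and at 12.64 to 31.56 TPM on the 6 days without it, which is the direction the DOX labels state.

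Promoter windows of the members that were higher in the PRC2-null lines are shown because SNAI, ZEB and TWIST proteins bind E-boxes, written CANNTG, and SNAI and ZEB proteins bind the form CACCTG, which reads CAGGTG on the opposite strand. RefSeq windows on GRCh38.p14, from 250 bases before to 50 bases after a transcript start, were found for 5 of the 10 members and numbered 12 in all. *SNAI2* was left out of this matching and none was found for *TWIST1*, so these higher members have no window here. Capitals mark every CANNTG, and each sequence is printed 5′ to 3′ on the strand of its gene.
*ZEB1*, chr10:31318966-31319265, plus strand: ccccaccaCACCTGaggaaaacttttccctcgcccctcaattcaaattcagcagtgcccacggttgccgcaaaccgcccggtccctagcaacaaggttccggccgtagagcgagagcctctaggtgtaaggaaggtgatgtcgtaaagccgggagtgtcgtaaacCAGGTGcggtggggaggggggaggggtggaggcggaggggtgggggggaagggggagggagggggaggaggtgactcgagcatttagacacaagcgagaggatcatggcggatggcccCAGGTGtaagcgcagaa
*ZEB2*, chr2:144520070-144520369, minus strand: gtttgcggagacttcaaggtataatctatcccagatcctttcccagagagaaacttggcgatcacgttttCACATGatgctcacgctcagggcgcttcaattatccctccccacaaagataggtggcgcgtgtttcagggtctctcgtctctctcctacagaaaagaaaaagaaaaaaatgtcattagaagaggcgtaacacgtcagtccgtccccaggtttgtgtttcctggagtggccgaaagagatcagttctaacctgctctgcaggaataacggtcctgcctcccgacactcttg
*CDH2*, chr18:28177081-28177380, minus strand: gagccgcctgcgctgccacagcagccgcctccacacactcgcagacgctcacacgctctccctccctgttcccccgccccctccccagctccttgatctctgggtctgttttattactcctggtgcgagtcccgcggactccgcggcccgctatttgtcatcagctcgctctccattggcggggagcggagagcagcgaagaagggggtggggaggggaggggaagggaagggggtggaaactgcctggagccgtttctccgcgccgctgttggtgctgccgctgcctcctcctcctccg
*VIM*, chr10:17227991-17228290, plus strand: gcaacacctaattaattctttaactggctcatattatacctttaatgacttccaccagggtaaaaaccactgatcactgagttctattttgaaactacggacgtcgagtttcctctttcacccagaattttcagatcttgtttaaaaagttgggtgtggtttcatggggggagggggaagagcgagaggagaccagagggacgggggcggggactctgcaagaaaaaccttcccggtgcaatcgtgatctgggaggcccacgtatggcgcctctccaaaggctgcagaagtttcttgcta

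The *ZEB1* window held 3 CANNTG hexamers, and all 3 were CACCTG or CAGGTG. Of the 6 other windows listed for *ZEB1*, 1 held a CAGGTG, so the window shown is the one richest in these hexamers and does not stand for the rest. The *ZEB2* window held 1 CANNTG of another form, and the *CDH2* and *VIM* windows shown held none. A further *CDH2* window, not shown, held 1 CANNTG of another form. Among all 34943 windows of the same length, 20.6% held CACCTG or CAGGTG on either strand and 68.7% held a CANNTG, a class that includes the former. At least 3 CANNTG were held by 15.3%. These matches describe the sequence only. CpG dinucleotides numbered 17, 14, 23 and 10 in the *ZEB1*, *ZEB2*, *CDH2* and *VIM* windows, beside a median of 14 over all windows.

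In the PRC2-null lines, 6 of the 10 members were higher and none was lower. The drivers *SNAI2*, *ZEB1*, *ZEB2* and *TWIST1* rose from at most 2.72 TPM in the retaining lines to at least 4.16 TPM, *CDH2* rose 11.7-fold and *VIM* 22.2-fold on the log2(TPM + 1) scale. *CDH1* did not differ beyond its error, and *EPCAM* was 1.7-fold higher, which is under the fold required. N-cadherin mRNA was thus gained without a detected loss of E-cadherin mRNA. *SNAI1* and *TWIST2* did not pass the test. A gene was called where limma's p, adjusted by Benjamini-Hochberg over all genes tested, was 0.01 or less and the estimated change 3-fold or more. By this rule 13.5% of the 19100 genes tested were called higher and 5.09% lower in the PRC2-null against the retaining lines, which is the background for the 6 and 0 of 10 members. All 6 were also called higher when each PRC2-null line was compared with WT H1 alone, which reuses the same samples and filter. The background share called higher there was 11.6% for EZH2-/-/EZH1-/- H1, 14.5% for SUZ12-/- H1 and 16.2% for EED-/- H1 cells. *SNAI2*, *ZEB1*, *ZEB2* and *TWIST1* passed the filter on low values (a TPM of at least 1 in 2 samples) only through the PRC2-null lines, so each of them had to differ. The adjusted p and the lack of overlap given for these 4 below are descriptions and not support for a rise. The share of all genes whose samples do not overlap between the groups was not determined. For all 6 members the lack of overlap is therefore a description, and it is not read as particular to any of them. At an unadjusted limma p under 0.05 stood 13578 of the 19100 genes.

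**Figure D1:**
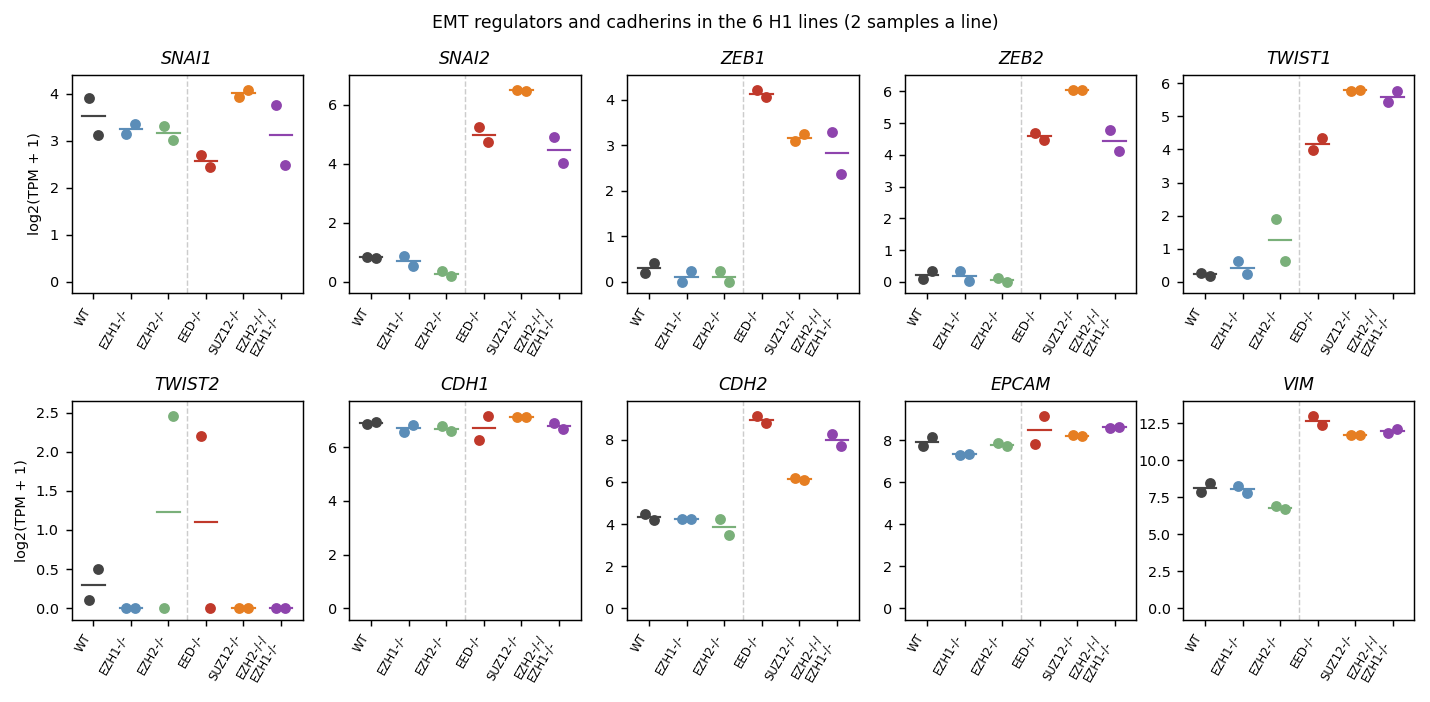
Level of each of the 10 genes as log2(TPM + 1) (y axis) in the 6 lines (x axis), with 1 point a sample and a bar at the mean of the 2 samples; the dashed line divides retaining from PRC2-null lines. The points of *SNAI2*, *ZEB1*, *ZEB2*, *TWIST1*, *CDH2* and *VIM* of the 6 PRC2-null samples all lie above those of the 6 others, while those of *CDH1* overlap.

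The SNAI genes encode the zinc-finger repressors Snail and Slug. *SNAI1* (ENSG00000124216, chromosome 20, 49982980 to 49988886 on GRCh38) was at 14.1 and 7.71 TPM in WT H1, 7.82 and 9.17 in EZH1-/- H1 and 8.87 and 7.03 in EZH2-/- H1 cells. It was at 5.46 and 4.43 TPM in EED-/- H1, 14.3 and 15.91 in SUZ12-/- H1 and 12.51 and 4.56 in EZH2-/-/EZH1-/- H1 cells. Its groups overlapped, and the log2 fold change of PRC2-null against retaining lines was −0.08 (SE 0.23, 95% interval −0.59 to 0.44, limma adjusted p = 0.784). *SNAI2* (ENSG00000019549, chromosome 8, 48917598 to 48921740), its close relative, was between 0.15 and 0.85 TPM in the 6 retaining samples. It was at 89.56 and 88.2 TPM in SUZ12-/- H1, 36.49 and 25.38 in EED-/- H1 and 29.09 and 15.47 in EZH2-/-/EZH1-/- H1 cells, so the groups did not overlap. The log2 fold change was 4.70 (SE 0.19, adjusted p = 7.39e-09).

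The ZEB genes encode large factors with a zinc-finger cluster at each end. *ZEB1* (ENSG00000148516, chromosome 10, 31318495 to 31529814) was between 0 and 0.34 TPM in the retaining samples. In PRC2-null cells it was at 17.55 and 15.54 TPM in EED-/- H1, 7.52 and 8.45 in SUZ12-/- H1 and 8.71 and 4.16 in EZH2-/-/EZH1-/- H1 samples. *ZEB2* (ENSG00000169554, chromosome 2, 144364364 to 144521057) was between 0 and 0.27 TPM in the retaining samples. It reached 24.75 and 21.22 TPM in EED-/- H1, 64.52 and 65.02 in SUZ12-/- H1 and 26.34 and 16.45 in EZH2-/-/EZH1-/- H1 samples. Neither gene overlapped between the groups, with log2 fold changes of 3.19 (SE 0.18, adjusted p = 9.8e-08) for *ZEB1* and 4.86 (SE 0.16, adjusted p = 3.25e-09) for *ZEB2*. The order of the PRC2-null lines differed between them, with EED-/- H1 samples highest for *ZEB1* and SUZ12-/- H1 samples highest for *ZEB2*. The kit did not mark strand as far as the methods say, so reads of a gene and its antisense partner cannot be told apart. *ZEB1-AS1* was listed at 1.33 to 6.34 TPM over all 19 samples, and *ZEB2-AS1* at no more than 2.69 TPM.

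The TWIST genes encode factors of mesoderm and cranial mesenchyme. *TWIST1* (ENSG00000122691, chromosome 7, 19020991 to 19117636) was between 0.14 and 0.54 TPM in WT and EZH1-/- H1 samples, and at 2.72 and 0.55 TPM in EZH2-/- H1 samples. It was at 14.74 and 19.49 TPM in EED-/- H1, 53.52 and 54.7 in SUZ12-/- H1 and 42.13 and 53.21 in EZH2-/-/EZH1-/- H1 cells, all above the retaining samples (log2 fold change 4.54, SE 0.22, adjusted p = 2.81e-08). *TWIST2* (ENSG00000233608, chromosome 2, 238848032 to 238910534) was listed at 0 in both EZH1-/- H1, both SUZ12-/- H1 and both EZH2-/-/EZH1-/- H1 samples. It was at 0.08 and 0.41 TPM in WT H1, at 0 and 4.48 TPM in EZH2-/- H1 and at 3.58 and 0 TPM in EED-/- H1 samples. Among the 12 line samples *TWIST2* was thus above 1 TPM in 1 EZH2-/- and 1 EED-/- sample, and the other sample of each of these lines was at 0.

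The cadherins gave the clearest contrast. *CDH1* (ENSG00000039068, chromosome 16, 68737292 to 68835537) was at 116.47 and 122.62 TPM in WT H1, 95.3 and 114.14 in EZH1-/- H1 and 109.62 and 95.66 in EZH2-/- H1 cells. It was at 75.8 and 142.09 TPM in EED-/- H1, 137.79 and 137.57 in SUZ12-/- H1 and 118.07 and 101.01 in EZH2-/-/EZH1-/- H1 cells. The lowest and the highest of the 12 values were both in EED-/- H1 samples, and the other 10 lay between 95.3 and 137.79 TPM. The log2 fold change of the PRC2-null lines was 0.10 (SE 0.15, 95% interval −0.23 to 0.42, adjusted p = 0.579). Scaling the samples by median ratios moved the median log2 fold change of all genes from 0.29 to 0.07 and that of *CDH1* from 0.10 to −0.17, so its sign depends on the scaling. Its mean (± SD, n = 2) was 137.7 ± 0.156 TPM in SUZ12-/- H1, 119.5 ± 4.35 in WT H1, 109.5 ± 12.1 in EZH2-/-/EZH1-/- H1 and 108.9 ± 46.9 in EED-/- H1 cells.

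*CDH2* (ENSG00000170558, chromosome 18, 27932879 to 28177946) was at 21.35 and 17.36 TPM in WT H1, 17.64 and 18.03 in EZH1-/- H1 and 17.78 and 10.28 in EZH2-/- H1 cells. It was at 555.84 and 439.14 TPM in EED-/- H1, 312.73 and 204.42 in EZH2-/-/EZH1-/- H1 and 72.55 and 68.24 in SUZ12-/- H1 cells. Every PRC2-null sample was above every retaining one, and the samples of the 3 PRC2-null lines did not overlap with one another. The log2 fold change was 3.55 (SE 0.16, adjusted p = 1.67e-08). This SE leaves out the spread between lines. Against WT H1 the log2 fold change was 4.61 in EED-/- H1, 3.65 in EZH2-/-/EZH1-/- H1 and 1.82 in SUZ12-/- H1 cells.

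Per sample, the ratio of *CDH2* to *CDH1* TPM was 0.107 to 0.185 in the 6 retaining samples, where E-cadherin mRNA was in excess. The ratio was 7.33 and 3.09 in EED-/- H1 and 2.65 and 2.02 in EZH2-/-/EZH1-/- H1 samples, where N-cadherin mRNA was in excess. SUZ12-/- H1 samples stood between them at 0.527 and 0.496, with *CDH1* still the more abundant transcript. The ratio is a description of the samples and was not tested. In the 4 EED-/- and EZH2-/-/EZH1-/- H1 samples the sum of both cadherins was 305.4 to 631.6 TPM, against 105.9 to 140.0 TPM in the retaining samples. In bulk RNA, fewer cells of a type and less RNA per cell cannot be told apart, so both transcripts may lie in the same cells or in different ones.

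**Figure D2:**
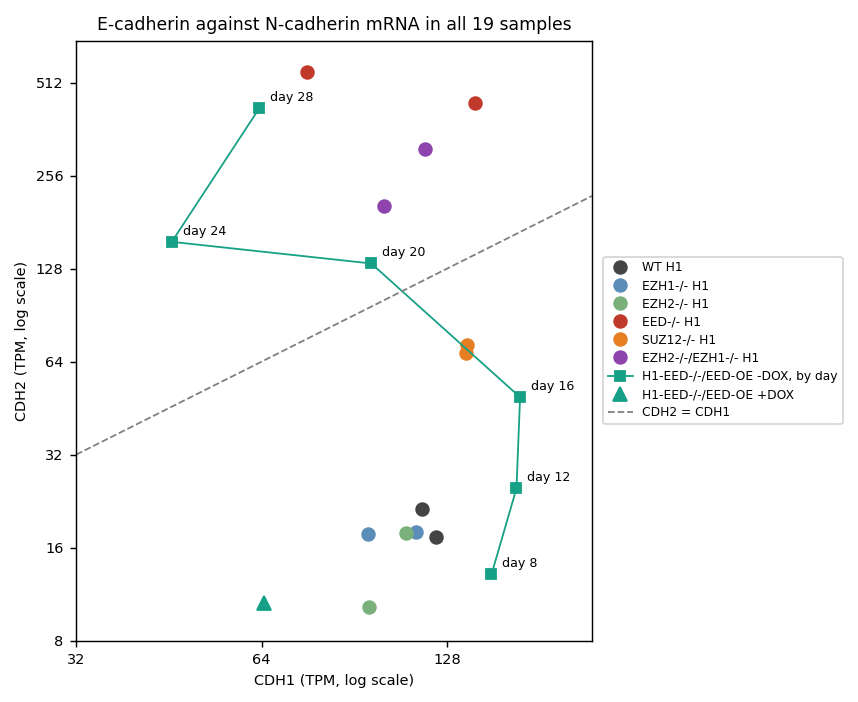
*CDH1* (x axis) against *CDH2* (y axis) in TPM on log scales, with 1 point for each of the 19 samples; squares joined by a line follow the days without DOX, and the dashed line marks equal levels. EED-/- and EZH2-/-/EZH1-/- H1 samples and days 20 to 28 lie above the dashed line, and SUZ12-/- H1 samples lie below it at *CDH2* levels of 72.55 and 68.24 TPM.

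*EPCAM* (ENSG00000119888, chromosome 2, 47345158 to 47387601), an adhesion protein of epithelia and of hESC colonies, was at 207.48 and 279.35 TPM in WT H1, 158.22 and 159.54 in EZH1-/- H1 and 229.4 and 207.33 in EZH2-/- H1 cells. It was at 222.82 and 563.79 TPM in EED-/- H1, 298.13 and 296.77 in SUZ12-/- H1 and 387.48 and 396.77 in EZH2-/-/EZH1-/- H1 cells. Only the lower EED-/- H1 sample fell within the range of the retaining samples, and the log2 fold change of 0.77 (SE 0.19, adjusted p = 0.00439) passed the p threshold but not the 3-fold one. With median-ratio scaling it was 0.50, and over all alternatives its adjusted p ran from 3.72e-05 to 0.0656. *VIM* (ENSG00000026025, chromosome 10, 17228241 to 17237593), the intermediate filament vimentin, was at 230.84 and 351.96 TPM in WT H1, 300.75 and 225.35 in EZH1-/- H1 and 117.3 and 102.74 in EZH2-/- H1 cells. It was at 8086.97 and 5399.78 TPM in EED-/- H1, 3383.62 and 3354.25 in SUZ12-/- H1 and 3766.07 and 4408.66 in EZH2-/-/EZH1-/- H1 cells. The groups did not overlap (log2 fold change 4.47, SE 0.14, adjusted p = 2.5e-09). *VIM-AS1*, its antisense partner, was listed at no more than 12.04 TPM in any sample.

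Against WT H1 alone, *CDH2* rose by 4.61 (SE 0.27) on the log2 scale in EED-/- H1, 3.65 (SE 0.27) in EZH2-/-/EZH1-/- H1 and 1.82 (SE 0.27) in SUZ12-/- H1 cells. *SNAI2* and *ZEB2* had their highest estimates in SUZ12-/- H1, where *CDH2* had its lowest. In SUZ12-/- H1 cells *SNAI2* rose by 5.66 (SE 0.32) and *ZEB2* by 5.82 (SE 0.28) on the log2 scale, against 4.15 (SE 0.32) and 4.37 (SE 0.28) in EED-/- H1 cells. *CDH1* gave 0.20 (95% interval −0.36 to 0.77) in SUZ12-/- H1, −0.13 (−0.69 to 0.44) in EZH2-/-/EZH1-/- H1 and −0.20 (−0.76 to 0.36) in EED-/- H1 cells, and these intervals do not reach a 3-fold fall. The EED-/- H1 estimate rests on unlike samples and ran from −0.65 to 0.25 when 1 sample was left out. With only the 4 samples of the lines compared, *ZEB1* in EZH2-/-/EZH1-/- H1 cells fell just short of the threshold, at an adjusted p of 0.0102, where its main value was 0.000118 and the log2 fold change 2.52.

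**Figure D3:**
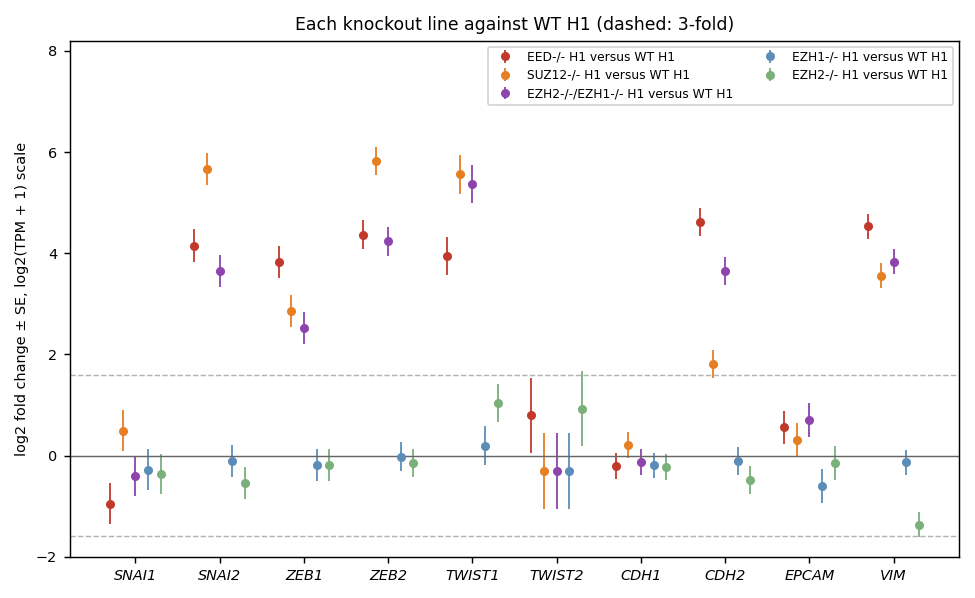
Log2 fold change ± SE on the log2(TPM + 1) scale (y axis) of each gene (x axis) in the 5 knockout lines against WT H1, from limma over 12 samples; dashed lines mark 3-fold. In the 3 PRC2-null lines *SNAI2*, *ZEB1*, *ZEB2*, *TWIST1*, *CDH2* and *VIM* lie above the upper dashed line, and *CDH2* of SUZ12-/- H1 is nearest to it at 1.82.

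The PRC2-null lines were then set against one another. *CDH2* was lower in SUZ12-/- H1 than in EED-/- H1 cells, with −2.79 on the log2 scale (SE 0.27, adjusted p = 7.47e-05), the only member called there, where 2.58% of all genes were called lower. This call held under all 8 alternatives, with an adjusted p of 1.76e-05 to 0.00228. *SNAI2* and *ZEB2* were higher in SUZ12-/- H1 than in EED-/- H1 cells by 1.51 (SE 0.32, adjusted p = 0.00778) and 1.46 (SE 0.28, adjusted p = 0.00498), just under 3-fold. With median-ratio scaling 5 members were called in this comparison, with *SNAI1*, *SNAI2*, *ZEB2* and *TWIST1* higher in SUZ12-/- H1 cells.

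Between SUZ12-/- H1 and EZH2-/-/EZH1-/- H1 cells, *SNAI2* was higher by 2.01 (SE 0.32, adjusted p = 0.00203), *ZEB2* was higher by 1.59 (SE 0.28, adjusted p = 0.00403) and *CDH2* was lower, at −1.83 (SE 0.27, adjusted p = 0.00135). The background there was 3.32% called higher and 1.14% called lower. None of the 3 calls was kept when the close pair of SUZ12-/- H1 samples was averaged into 1, which gave an adjusted p of 0.0324, 0.055 and 0.0212, with log2 fold changes of 2.01, 1.59 and −1.83. Leaving out either SUZ12-/- H1 sample also left 0 members called. Over all alternatives their adjusted p reached 0.0324, 0.107 and 0.0225. Leaving out either EZH2-/-/EZH1-/- H1 sample also cost a call: *CDH2* was at −1.52 without replicate 1, and *SNAI2* and *ZEB2* were at 1.58 and 1.27 without replicate 2. No member was called between EZH2-/-/EZH1-/- H1 and EED-/- H1 cells, where 0.089% of all genes were called. At an unadjusted limma p under 0.05 stood 4 of the 10 members and 3831 of the 19100 genes tested. Of these members *TWIST1* was at 1.43 (SE 0.38), *ZEB1* at −1.31 (SE 0.32), *CDH2* at −0.96 (SE 0.27) and *VIM* at −0.70 (SE 0.25). Without EZH2-/-/EZH1-/- H1 replicate 1, *ZEB1* was called lower, at −1.76.

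No member was called in either single EZH knockout against WT H1. For EZH1-/- H1 the share of all genes called was 0.0995%, and 0 members and 3058 of the 19100 genes tested had an unadjusted p under 0.05. The 2 EZH2-/- H1 samples stood further apart than those of WT H1, with a median absolute log2 difference of 0.322 against 0.0959. For EZH2-/- H1 cells limma called 0 genes (0%), which does not by itself show likeness to WT H1. At an unadjusted p under 0.05 were 1110 genes and 2 members. These members were *VIM*, at −1.37 (SE 0.25, adjusted p = 0.142), and *TWIST1*, at 1.04 (SE 0.38, adjusted p = 0.694). Both EZH2-/- H1 samples had less *VIM* (117.3 and 102.74 TPM) than any other line sample. *TWIST1* at 2.72 TPM in EZH2-/- H1 replicate 1 was above every other retaining sample, and the other replicate was at 0.55 TPM.

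Removal of DOX from H1-EED-/-/EED-OE cells gave the order in which the genes moved, with 1 sample a day and so no error for any single day. From day 8 to day 16, *SNAI2* (0.61 to 1.45 TPM) and *ZEB1* (0 to 0.35 TPM) stayed near their levels with DOX (0.93 and 0.26 TPM). *ZEB2* was at 1.51, 1.7 and 0.89 TPM on these days, above the 0.26 TPM with DOX and the 0.07 and 0.26 TPM of WT H1, but far below its later levels. *CDH2* was at 13.09, 24.89 and 49.08 TPM on days 8, 12 and 16, and passed the WT H1 samples (17.36 and 21.35 TPM) by day 12. *TWIST1* was at 5.64, 6.83 and 3.98 TPM on the same days and at 0.28 TPM with DOX.

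Day 20 was the day of the highest *SNAI1*. It was at 14.01, 13.77 and 16.21 TPM on days 8, 12 and 16, at 142.11 TPM on day 20, and at 58.49 and 17.86 TPM on days 24 and 28. By day 28 it was back near the early days. *SNAI2* went from 1.13 TPM on day 16 to 64.73 on day 20, 153.92 on day 24 and 31.06 on day 28. *ZEB2* was at 8.98, 50.38 and 20.16 TPM on days 20, 24 and 28, and *ZEB1* at 2.29, 10.92 and 16.43 TPM. *SNAI1* thus peaked on day 20, *SNAI2* and *ZEB2* on day 24, and *ZEB1* was highest on day 28. *TWIST1* was at 29.28, 29.19 and 24.39 TPM on these days. *TWIST2* went the other way, with 13.04, 17.66, 14.93 and 14.3 TPM on days 8 to 20, then 10.57 and 3.49 TPM on days 24 and 28. With DOX it was at 6.12 TPM, so only day 28 was below that sample.

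*CDH1* was at 151.15, 165.97 and 168.2 TPM on days 8, 12 and 16, and at 96.44, 45.74 and 63.43 TPM on days 20, 24 and 28. All 3 late days lay below all 3 early days, but the sample with DOX was at 64.54 TPM, as low as day 28. *CDH2* reached 133.02, 156.3 and 422.93 TPM on days 20, 24 and 28. The ratio of *CDH2* to *CDH1* was 0.163 with DOX, 0.0866, 0.15 and 0.292 on days 8, 12 and 16, and 1.38, 3.42 and 6.67 on days 20, 24 and 28. The cadherins crossed between day 16 and day 20. *VIM* was at 289.79, 200.02 and 114.56 TPM on the early days, at 632.6 TPM on day 20 and at 5805.15 and 4533.32 TPM on days 24 and 28. *EPCAM* was at 246.1, 237.27, 220.54, 268.01, 156.36 and 500.73 TPM from day 8 to day 28, with no common direction.

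A straight line over the 6 days was fitted for 17245 genes. *CDH2* and *ZEB1* were called higher with time, 2 of 10 members where 1.35% of all genes were called higher. *ZEB1* passed the filter on low values only through days 20 to 28 (2.29 to 16.43 TPM). Its call is thus a description and not support for a rise. Without the filter neither gene was called, at a limma adjusted p of 0.0126 for *CDH2* and 0.0174 for *ZEB1*. *CDH2* had an estimated log2 change of 4.83 from day 8 to day 28 (SE 0.32, adjusted p = 0.00467) and *ZEB1* of 4.52 (SE 0.67, adjusted p = 0.0099). Both calls rest on few samples: leaving out day 8, 12, 24 or 28 left 0 members and 0 genes called, with *CDH2* at 4.67 to 5.04. *CDH1* gave −1.79 (SE 0.45, adjusted p = 0.0335), and −0.53 with the DOX sample set as day 0. The other lines were 6.35 (SE 1.64) for *SNAI2*, 5.26 (SE 1.33) for *VIM*, 4.36 (SE 1.07) for *ZEB2* and 2.59 (SE 0.76) for *TWIST1*, with adjusted p of 0.038, 0.0357, 0.0324 and 0.0508. *SNAI1*, whose course rose and fell, gave 1.53 (SE 1.23, adjusted p = 0.402). *TWIST2* gave −1.48 (SE 0.57, limma adjusted p = 0.104) and *EPCAM* 0.51 (SE 0.54, adjusted p = 0.527).

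**Figure D4:**
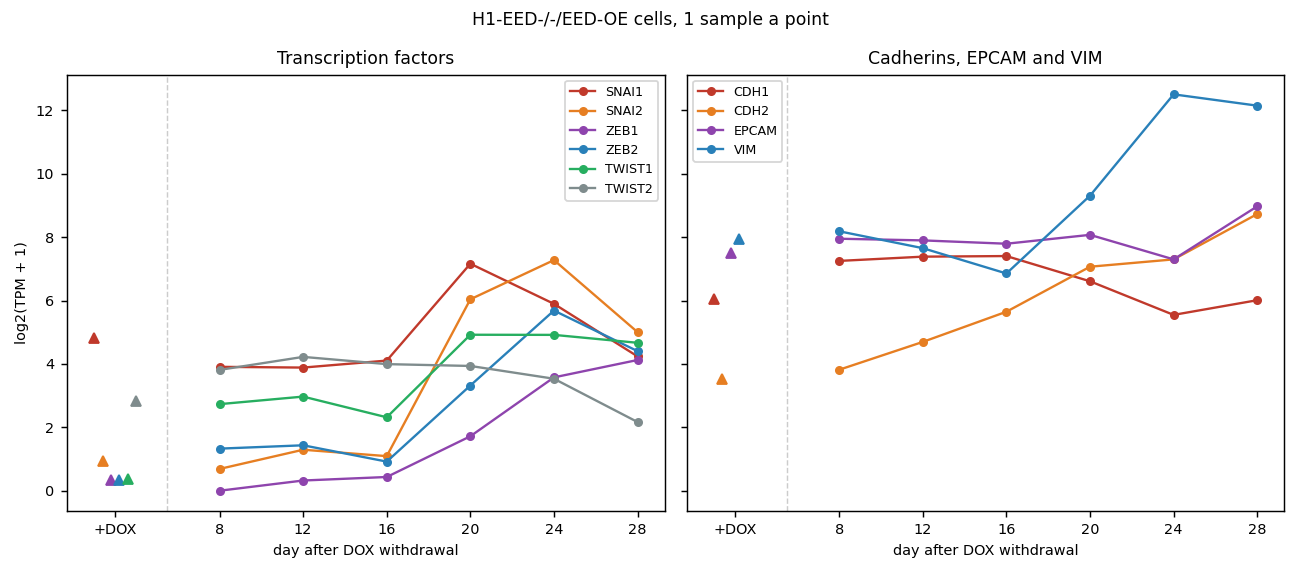
Level of each gene as log2(TPM + 1) (y axis) in H1-EED-/-/EED-OE cells against the day after DOX withdrawal (x axis), 1 sample a point; triangles at the left show the sample with DOX, shifted sideways for legibility. *SNAI1* is highest on day 20 (142.11 TPM) and *SNAI2* on day 24 (153.92 TPM), and *CDH2* climbs from day 8 on.

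With DOX, the rescue line was compared side by side with WT H1, without a test. *ZEB1*, *ZEB2* and *VIM* (0.26, 0.26 and 244.93 TPM) were within the range of the WT H1 samples. *SNAI2* (0.93 TPM) and *TWIST1* (0.28 TPM) were also below 1 TPM, but above both WT H1 samples (0.76 and 0.79 TPM, 0.14 and 0.2 TPM). *CDH1* at 64.54 TPM, *CDH2* at 10.55 TPM and *EPCAM* at 180.19 TPM were below both WT H1 samples. *SNAI1* at 27.43 TPM and *TWIST2* at 6.12 TPM were above both. On day 28 the line was near the constitutive EED-/- H1 cells for several members. *SNAI2* (31.06 TPM), *ZEB1* (16.43 TPM), *TWIST2* (3.49 TPM) and *EPCAM* (500.73 TPM) were within the range of the EED-/- H1 samples. For *TWIST2* (0 to 3.58 TPM) and *EPCAM* (222.82 to 563.79 TPM) that range spans 2 unlike samples, so lying within it says little. *CDH2* (422.93 TPM), *ZEB2* (20.16 TPM) and *VIM* (4533.32 TPM) were just below it, *CDH1* (63.43 TPM) was below both samples, and *TWIST1* (24.39 TPM) and *SNAI1* (17.86 TPM) were above both.

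Other genes of the programme were read from lists, in the comparison of PRC2-null with retaining lines, where the background is again 13.5% called higher and 5.09% lower. Many of the list genes called higher passed the filter on low values only through the PRC2-null samples and so had to differ: 7 of the 9 other EMT factors, 6 of the 34 mesenchymal genes, 3 of the 7 cadherins and 1 of the 4 epithelial-state regulators named below, against 991 of the 2579 called genes overall. Their counts and medians describe the lists and are not support for a change of the whole. Of 18 other EMT-associated transcription factors 9 were called higher and 0 lower, with a median log2 fold change of 1.31 beside 0.29 over all genes tested. The most raised were *LEF1*, a partner of β-catenin (log2 fold change 5.02, SE 0.17, 36.18 to 70.71 TPM in PRC2-null and 0.26 to 1.11 TPM in retaining samples), *FOXQ1*, a forkhead factor (4.41, SE 0.24), and *PRRX1*, a homeobox factor of mesenchyme (4.01, SE 0.16). Of 38 mesenchymal cytoskeleton, adhesion and matrix genes, some of which are also on the fibroblast and cadherin lists, 34 were called higher and 1 lower (median 3.90). *COL3A1*, a fibrillar collagen, was at 960.79 to 11279.44 TPM in PRC2-null and at 0 to 0.22 TPM in retaining samples. *LUM*, a collagen-binding proteoglycan, rose by 9.83 (SE 0.12) and *POSTN*, the matrix protein periostin, by 7.94 (SE 0.27). The gene called lower was *THY1*, a surface protein that both hESCs and fibroblasts carry, at −2.01 (SE 0.29).

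Epithelial genes went in both directions, with more called higher than lower. Of 34 epithelial junction and keratin genes 8 were called higher, 1 lower and 25 neither (median 0.50), with the count lower near the share over all genes. *KRT7* rose by 3.22 (SE 0.13), *DSP*, the desmosome plaque protein desmoplakin, by 2.95 (SE 0.23) and *KRT8* by 2.63 (SE 0.16), from 376.41 to 626.91 TPM in retaining samples to 1781.18 to 5680.16 TPM in PRC2-null samples. *CLDN10*, a tight junction claudin, fell by 3.60 on the log2 scale (SE 0.17). Of 13 epithelial-state regulators 4 were called higher and 0 lower (median 0.71), led by *KLF5* (4.0, SE 0.20), *GRHL3* (3.15, SE 0.22) and *TP63* (2.55, SE 0.30), all of them factors of epithelial tissues. *ESRP1*, an epithelial splicing regulator named here after its values were seen, was at −1.38 (SE 0.17, adjusted p = 3.81e-05), under 3-fold. Its mean was 102.8 TPM in WT H1, 44.67 in EZH2-/-/EZH1-/- H1, 27.27 in EED-/- H1 and 26.77 in SUZ12-/- H1 cells, and against WT H1 it was called lower in the last 2 lines, at −1.96 and −1.90. *RBM47* (−1.09, SE 0.25) and *OVOL2* (−0.86, SE 0.17) also had negative values under 3-fold. Of the other regulators not called, *ELF3* (1.28), *GRHL1* (1.04), *OVOL1* (0.71), *EHF* (0.63) and *GRHL2* (0.08) had positive values and *ESRP2* (−0.35) a negative one. Of 10 cadherin-catenin partners 1 was called higher and 1 lower (median 0.38): the neural catenins *CTNND2*, at 1.73 (SE 0.19), and *CTNNA2*, at −1.77 (SE 0.18). For a list of 10 these counts are near the shares over all genes (13.5% and 5.09%), whose median was 0.29.

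N-cadherin was not the only cadherin gained. Of 15 type I and II cadherins, *CDH1* and *CDH2* among them, 7 were called higher and 0 lower (median 1.10). The largest rises were those of *CDH11*, a cadherin of mesenchyme (5.04, SE 0.34), *CDH5*, the endothelial VE-cadherin (4.76, SE 0.23), and *CDH6* (4.27, SE 0.17). *CDH11* was at 50.56 to 326.69 TPM in PRC2-null and 3.49 to 7.37 TPM in retaining samples, and *CDH5* at 11.89 to 145.93 and 0.13 to 0.95 TPM. Over the days without DOX, 6 of 36 tested mesenchymal genes and 4 of 34 tested junction and keratin genes were called higher and none lower, where 1.35% of all genes were called higher. As for the members, no gene was called once day 8, 12, 24 or 28 was left out. How many of these list genes passed the filter only through the late days was not determined.

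**Figure D5:**
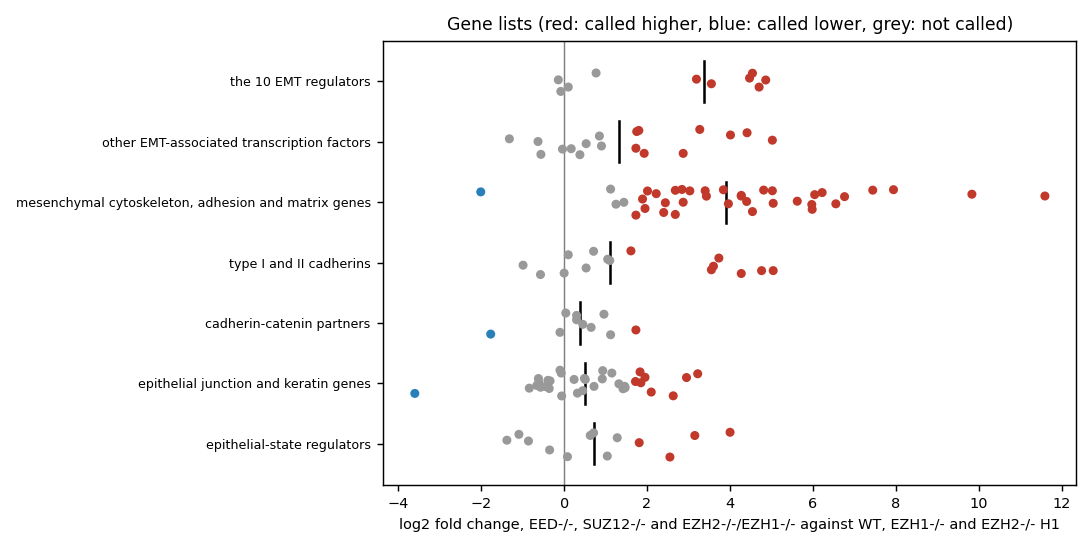
Log2 fold change of PRC2-null against retaining lines (x axis) for every tested gene of 7 lists (rows), with a black bar at each list's median and points spread vertically for legibility. Of 38 mesenchymal genes 34 are red (called higher), while the 34 junction and keratin genes lie on both sides of 0 with 8 called higher and 1 lower.

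Markers of other cell types moved with these genes. Of the called rises among them, 5 of 7 yolk sac and endoderm, 5 of 6 trophoblast and amnion, 3 of 6 fibroblast and stromal, 2 of 4 endothelial and 1 of 2 neural plate markers passed the filter only through the PRC2-null samples. All 7 markers of yolk sac and endoderm epithelium were called higher, with a summed level of 1419.1 to 20160.5 TPM in PRC2-null and 5.1 to 15.1 TPM in retaining samples. They include *TTR*, *APOA1* and *AFP*, secreted proteins of visceral endoderm, which is an epithelium. All 6 trophoblast and amnion markers were called higher (220.9 to 435.6 against 12.6 to 15.1 TPM), *TFAP2A*, *GATA3* and *HAND1* among them. Of 7 fibroblast and stromal markers 6 were called higher and 1 lower (2550.9 to 20810.6 against 384.1 to 722.0 TPM). Of 6 endothelial markers 4 were called higher, but the summed level overlapped (58.8 to 509.0 against 46.8 to 146.3 TPM). Of 5 neural crest markers 0 were called higher and *FOXD3* was called lower, with sums of 6.4 to 16.5 against 22.2 to 47.5 TPM. *FOXD3* itself was at 0.13 to 0.77 against 16.83 to 23.4 TPM, so it weighs on the sum of the retaining samples. Against WT H1 alone, each PRC2-null line had 1 of the 5 called higher and 1 lower, where 11.6% to 16.2% of all genes were called higher. Of the 3 neural plate markers tested *PAX6* and *ZIC1* were called higher, with sums of 78.0 to 386.7 against 77.2 to 157.1 TPM. The part of these cell types in the levels of *CDH1*, *EPCAM*, *CDH2* and *VIM* was not tested. In the time course the fibroblast and stromal sum was 337.8 TPM on day 20 and 5388.0 TPM on day 24, the sampled day after that of the highest *SNAI1*. The trophoblast and amnion sum went from 13.5 TPM on day 16 to 561.2 TPM on day 20, the day of the highest *SNAI1*, and was 203.9 and 122.0 TPM on days 24 and 28. The yolk sac and endoderm sum rose through the days, from 8.3, 26.6 and 83.7 TPM on days 8, 12 and 16 to 382.1, 575.7 and 1262.5 TPM on days 20, 24 and 28. The part of these cell types in the course of *SNAI1* and *CDH2* was not tested.

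Finally, the genes most like each member were taken by Pearson's r of log2(TPM + 1) over 13 conditions, the means of the 6 lines and the 7 H1-EED-/-/EED-OE samples. These points share lines and a transgene, so the values are a description. *CDH2* was most like *LRIG3* (r = 0.99), *WDR63* (0.989) and *CREB3L2* (0.988). *SNAI2* was most like *CRHBP* (0.989), *HOXA13* (0.986) and *FOXF1* (0.983), and *ZEB2* was most like *OAF* (0.988), *HOXB13* (0.982) and *NR2F1* (0.981). *TWIST1* was most like *TFAP2A* (0.98), *TBX3* (0.973) and *WNT11* (0.97). *ZEB1* was most like *ST8SIA4* (0.992), *AP1M1* (0.991) and *ATG4A* (0.985), and *VIM* was most like *MBNL2* (0.989), *GPSM1* (0.987) and *COL1A1* (0.983). *CDH1* had lower values, with *BCL2L11* (0.888), *FAM117B* (0.885) and *ZNF92* (0.862). Among the members, *ZEB1* and *VIM* had an r of 0.96, *SNAI2* and *ZEB2* of 0.95 and *CDH1* and *CDH2* of −0.33.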

How the data were processed

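RNA-seq of 19 samples was used. The authors prepared TruSeq RNA libraries, aligned reads with Bowtie2 to a GRCh38 mRNA reference, quantified them with RSEM and deposited TPM for 33382 genes per sample. GRCh38, hg38 and hg19 are all named in the submitters' processing notes. Depth is unknown, since TPM columns sum to 999999.2 to 1000001.0. Genes were joined by Ensembl identifier, because 33 names differ between tables. The authors describe edgeR on counts at 1% FDR and 3-fold. Since the unit was TPM, limma 3.58.1 in R 4.3.3 was fitted to log2(TPM + 1), which understates changes of low genes, with trend and robust eBayes, keeping genes that reached 1 TPM in 2 or more of the 12 line samples (19100) or the 7 H1-EED-/-/EED-OE samples (17245). The line fit had 1 mean a line, and the day fit used the 6 samples without DOX. The script was tested on simulated data. Alternatives were a pseudocount of 0.1, no filter, median-ratio scaling, leaving out samples, a replicate block, fits of fewer samples, DOX as day 0 and the order of days. Averaging the SUZ12-/- H1 pair was added after seeing the data. The members, lists and tests were chosen with earlier results of these data known. Named beside the 10 members are the 4 targeted genes, up to 3 called rises and 3 called falls of each list, and 3 genes most like each of *CDH1* and the 6 called members. The antisense partners of *ZEB1*, *ZEB2* and *VIM* and, after seeing values, the 9 epithelial-state regulators not called are named besides. Coordinates are from GENCODE release 44 on GRCh38, and promoters from RefSeq on GRCh38.p14.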

Additional observations from a re-analysis of the deposited data

Results flagged for a closer look

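Differences between the PRC2-null lines in their response against the shared WT H1 samples were looked at again, by the contrast of the lines in limma. *CDH2* was lower in SUZ12-/- H1 than in EED-/- H1 cells (log2 fold change −2.79) and than in EZH2-/-/EZH1-/- H1 cells (−1.83), lower in 2 of 2 SUZ12-/- H1 samples than in all 4 others. *SNAI2* was higher in SUZ12-/- H1 than in EZH2-/-/EZH1-/- H1 cells (2.01), and so was *ZEB2* (1.59), in 2 of 2 samples each. The line with the least *CDH2* of the 3 was thus the line with the most *SNAI2* and *ZEB2*. With the SUZ12-/- H1 samples averaged into 1, the difference between SUZ12-/- H1 and EED-/- H1 cells in *CDH2* was still called and the other 3 were not. That fit also leaves the line 1 sample, so it does not single out the close agreement of the pair, and leaving out either sample lost the same 3 calls.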

How the results depend on the processing

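The 6 members called in the PRC2-null lines were called under all 16 alternatives of that comparison, and under all those of EED-/- H1 and SUZ12-/- H1 against WT H1; for EZH2-/-/EZH1-/- H1, 65 of 66 member values kept their call. No value reversed past the threshold. A pseudocount of 0.1 raised the genes called in the PRC2-null against retaining lines from 3551 to 5593, and gave 7 for EZH1-/- against WT H1, 8 for EZH2-/-/EZH1-/- against EED-/- H1 and 1 member for SUZ12-/- against EZH2-/-/EZH1-/- H1 cells. No filter gave 2 genes for EZH2-/- against WT H1, 1 for EZH2-/-/EZH1-/- against EED-/- H1, and 0 members and 1 gene for the days. Median-ratio scaling, which moved the median gene by −0.225 for the PRC2-null lines and −0.133 over the days, gave 12 and 2 genes for EZH1-/- and EZH2-/- against WT H1, 5 members for SUZ12-/- against EED-/- H1, and 1 member and 46 genes over the days. With DOX as day 0, 1 member was called. The 4-sample fits called 1908 genes for EZH2-/-/EZH1-/- and 166 for EZH1-/- against WT H1. With the SUZ12-/- H1 samples averaged, 3 genes were called for EZH1-/- against WT H1, 381 for SUZ12-/- against EED-/- H1, 1 for EZH2-/-/EZH1-/- against EED-/- H1, and 0 members and 220 genes for SUZ12-/- against EZH2-/-/EZH1-/- H1. Apart from fewer samples in these fits, the cause was not tested.

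Leaving out 1 sample in turn, the lone sample being assumed to vary like the other lines, gave 0 to 0 genes for EZH1-/- and 0 to 9 for EZH2-/- against WT H1, 384 to 1201 for SUZ12-/- against EED-/- H1, 0 to 1 members and 1 to 737 genes for EZH2-/-/EZH1-/- against EED-/- H1 (737 without EZH2-/-/EZH1-/- H1 replicate 1), and 0 to 2 members and 223 to 1663 genes for SUZ12-/- against EZH2-/-/EZH1-/- H1. Leaving out 1 day gave 0 to 2 members and 0 to 374 genes. In fits with fewer samples *TWIST2* and, for the single EZH knockouts, *SNAI2*, *ZEB1*, *ZEB2* and *TWIST1* did not always pass the filter and then have no value.

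Titles of WT, EED-/- and EZH2-/-/EZH1-/- H1 samples carry the numbers 1 and 2. Deviations of same-numbered samples correlated by 0.041, 0.047 and −0.077, so no broad common shift was seen over all genes. Whether same-numbered samples shared a culture or a run that acted on fewer genes was not tested. With a replicate block on these 6 samples, 6 members and 3735 genes were called for EED-/- and 6 and 2572 for EZH2-/-/EZH1-/- against WT H1, and 0 and 1 for EZH2-/-/EZH1-/- against EED-/- H1. Without the block the same samples gave 3661, 2615 and 1 genes.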
